A study of Mus musculus with 6 samples.

Results

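Rab GTPases and the SNARE proteins of vesicle fusion were followed in lung alveolar type II cell isolates with and without Insig1. The set was taken by gene symbol: Rab (without Rab38), Stx, Stxbp, Vamp, Snap or Syt, each directly followed by a digit, on probe sets that name 1 gene. Of the 18193 genes so named on the array, 119 matched. They were 58 Rab GTPases, 10 proteins named for binding or regulating a Rab, 3 opposite-strand transcripts, 14 syntaxins, 6 syntaxin-binding proteins, 7 VAMPs, 4 genes of the Snap25 family, the clathrin adaptor gene Snap91 and 16 synaptotagmins. Each gene was read from its brightest probe set. A filter on dim probe sets, set at the 40th percentile of mean log2 signal (a signal of 271), kept 100 of the 119 among 12952 genes tested.

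The series compares 2 genotypes with 3 RNA pools each, from 2-month-old mice. The deleted group is labelled Insig1 ∆/∆ /Insig2 -/- and carried SpC-rTTA, Otet-CRE and Insig1 flox/flox. The control group is labelled Insig1 flox/flox /Insig2 -/- and lacked either SpC-rtTA or Otet-CRE. Both groups thus carry the Insig2 -/- genotype, and the labels of both give doxycycline between E6.5 and E12.5. The activator of Cre was under the surfactant protein C promoter. No group joined the whole Cre system to an intact Insig1, so the Cre system and the loss of Insig1 cannot be told apart. The labels do not say how many mice made up a pool. In pooled RNA from an isolate, fewer cells of a type and less RNA per cell cannot be told apart.

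Rab GTPases are molecular switches that mark each membrane compartment, and when bound to GTP they recruit effectors that move and tether vesicles. A vesicle SNARE (VAMP) then zips together with syntaxin and a Snap25-type SNARE on the target membrane, guided by Sec1/Munc18-type proteins and, in calcium-triggered exocytosis, by synaptotagmins. Type II cells store surfactant in lamellar bodies and release it by such regulated exocytosis. Rabs are anchored to membranes by geranylgeranyl groups, which come from the mevalonate pathway that SREBP factors drive and INSIG proteins restrain.

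Insig1 signal averaged 2862 ± 519.5 in control pools and 1482 ± 251 in deleted pools (SD, n = 3 each), with an adjusted p of 0.068 (limma). The brightest Insig2 probe set read 2249 ± 392 and 1981 ± 110 in these groups, both labelled Insig2 -/-. Whether either probe set covers a deleted stretch was not checked here. Control pool 3 was unlike the rest: its score on the first principal component was -39.1, and the remaining 5 arrays had scores from -12.9 to 18.7. The 8 tested type II cell markers were bright in every pool, with a lowest signal of 15263, and 0 of 8 passed the threshold. Of 9 tested macrophage markers 6 rose, with a summed signal of 33387 to 52405 in control and 88129 to 94033 in deleted pools, and their lowest signal on any array was 447.5, so none read 0. Of 8 airway markers 2 fell, with summed signals of 423318 to 558813 in control and 359992 to 451738 in deleted pools and a lowest signal of 3278. The part of these other cells in the values below was not tested, unless a value is given there.

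No Rab or SNARE gene passed the threshold. By limma, 0 of 100 had an adjusted p under 0.05 in either direction, where 0.649% of all genes tested did (0.625% higher and 0.0232% lower). With no adjustment, 6 genes had a p under 0.05 and a higher mean in deleted pools (background 6.05%) and 3 a lower mean (background 6.02%), together 9 of 100 against a background of 12.1%. Groups did not overlap for 24 of the 100 (13 above, 11 below), where 17.1% of all genes had such groups (9.2% above and 7.9% below). The median log2 fold change, deleted minus control, was 0.003 for the set and -0.005 for all genes tested. Positive values were found for 53 of the 100 and for 6358 of the 12952 genes tested. In the 15 alternative fits 0 genes of the set passed the adjusted threshold, while 0.116% to 3.68% of all genes did. The 9 genes became 7 without control pool 3 (background 11.6%), and 21 of 99 without control pool 2 (background 17.8%). They became 4 of 100, 4 of 99 and 6 of 101 without deleted pools 1, 2 and 3 (backgrounds 9.16%, 7.48% and 8.78%), and 7 of 100 without control pool 1 (background 10.3%). Of other fits, the one with the pool number as a block gave 10 (background 14%), the one with weighted arrays 13 (background 17.1%) and the one with no trend 6 (background 11.3%).

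The differences of these genes were small in size. For 73.0% of them the log2 fold change lay within 0.25 of 0, as it did for 65.9% of all genes tested. Only 4 of the 100 lay beyond 0.5 on the log2 scale (4.0%, against 11.2% of all genes), and 1 beyond 1. The set was also brighter than all genes tested (median signal 2378 against 1797), with a median standard error of 0.16 against 0.18. The shares were not matched for signal. The 95% interval of the log2 fold change, not adjusted for the number of genes, lay wholly between -1 and 1 for 95 of the 100. It lay wholly between -0.5 and 0.5 for 39. For the others a difference of 0.5 in at least one direction lay inside the interval.

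**Figure D1:**
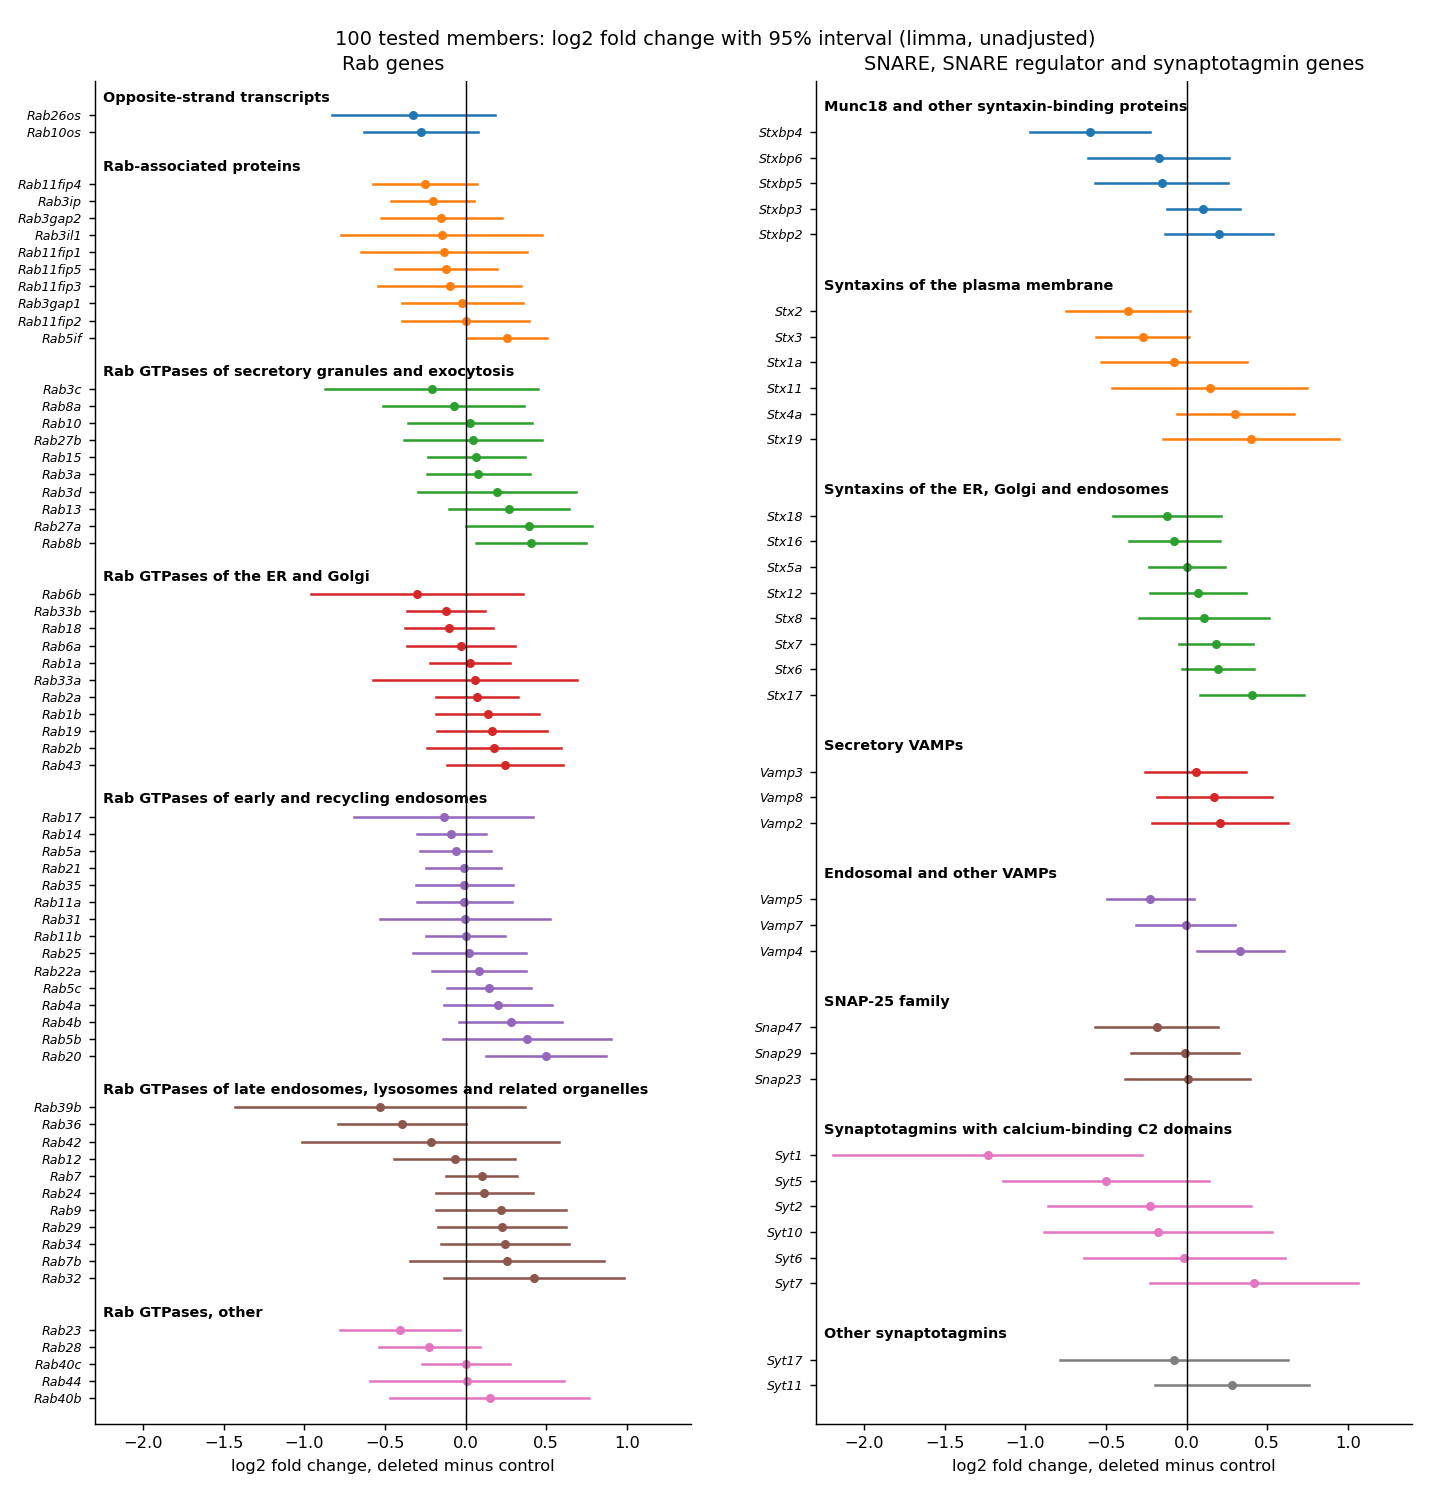
Log2 fold change (deleted minus control) of the 100 tested Rab and SNARE genes with 95% intervals from limma, not adjusted for multiple testing, grouped by compartment or protein family. Most intervals cross 0, and the widest belong to dim genes such as Syt1 at -1.23 and Rab39b at -0.53.

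The bases before the start sites were read for the letters that SREBP factors are known to bind, a sterol regulatory element (TCACNCCAC) and the E-box (CACGTG), on both strands. Windows of 250 bases came from RefSeq (GRCm38.p6), and 85 of the 100 tested genes had one or more. The sterol element letters were present for 1 of these 85 genes, Syt1, against 1.19% of the tested genes of the whole array with a window. The E-box letters were present for 12 of the 85 (14.1%), against 9.64% of all tested genes with a window. The median log2 fold change was -0.01 for those 12 genes and 0.00 for the others. A match describes these letters only, and no match says only that they are not in this window. The windows printed here belong to the genes with an unadjusted p under 0.05, groups that did not overlap and a match, which is in capitals. They are Syt1 at chr10:109010976-109011225 (minus strand), Rab20 at chr8:11478641-11478890 (minus strand), Rab23 at chr1:33719646-33719895 (plus strand), Rab27a at chr9:73063898-73064147 (plus strand, at the downstream of its start sites) and Vamp4 at chr1:162570265-162570514 (plus strand).
Syt1: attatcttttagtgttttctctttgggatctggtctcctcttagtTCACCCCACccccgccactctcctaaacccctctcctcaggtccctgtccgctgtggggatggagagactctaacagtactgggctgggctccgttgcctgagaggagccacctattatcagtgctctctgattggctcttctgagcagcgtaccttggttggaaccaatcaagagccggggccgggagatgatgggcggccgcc
Rab20: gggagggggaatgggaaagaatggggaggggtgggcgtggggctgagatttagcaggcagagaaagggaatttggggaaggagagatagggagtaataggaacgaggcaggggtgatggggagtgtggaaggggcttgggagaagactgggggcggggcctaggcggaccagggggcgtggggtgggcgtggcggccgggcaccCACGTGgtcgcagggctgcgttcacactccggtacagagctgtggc
Rab23: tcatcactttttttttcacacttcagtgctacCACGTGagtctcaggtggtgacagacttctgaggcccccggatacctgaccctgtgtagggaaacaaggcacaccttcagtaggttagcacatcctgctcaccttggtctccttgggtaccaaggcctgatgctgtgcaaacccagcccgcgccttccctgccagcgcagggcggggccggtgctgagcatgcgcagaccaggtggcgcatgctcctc
Rab27a: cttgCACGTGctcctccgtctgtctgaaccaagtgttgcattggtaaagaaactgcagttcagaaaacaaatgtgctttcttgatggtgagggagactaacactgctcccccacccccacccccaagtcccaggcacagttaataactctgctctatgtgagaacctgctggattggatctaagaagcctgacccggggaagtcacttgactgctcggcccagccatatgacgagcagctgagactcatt
Vamp4: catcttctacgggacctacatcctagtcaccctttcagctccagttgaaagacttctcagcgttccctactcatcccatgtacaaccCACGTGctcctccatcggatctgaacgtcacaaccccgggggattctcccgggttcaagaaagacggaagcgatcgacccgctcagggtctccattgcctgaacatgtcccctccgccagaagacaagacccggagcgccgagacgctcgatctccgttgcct
Among these genes the E-box stood in windows of genes on both sides of 0: Rab20 (0.50), Rab27a (0.39) and Vamp4 (0.33) above it and Rab23 (-0.41) below it. The first letter of the match lay 205 bases before the start for Syt1, 46 for Rab20, 218 for Rab23, 246 for Rab27a and 163 for Vamp4.

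Among Rabs of secretory granules and exocytosis, 10 of 13 genes passed the filter, 8 of the 10 had positive values and the median log2 fold change was 0.07. On the brightest probe sets, control pool 3 was the lowest of the 6 pools for Rab27a, Rab27b, Rab3d, Rab10 and Rab15, and the highest for Rab3a. Dimmer probe sets could differ: on a dimmer one of Rab10 this pool was the highest (4918), and on that of Rab3a the lowest (1051). The positive values were not counted without that pool. Rab27a docks granules at the plasma membrane. Its signal was 7653, 6828 and 4641 in the control pools and 8361, 8069 and 8117 in the deleted pools. Every deleted pool lay above every control pool, and control pool 3 was the lowest of all. The log2 fold change was 0.39 ± 0.17 (± SE, here and for all log2 fold changes that follow), with an interval from 0.00 to 0.78 and an adjusted p of 0.41 (limma), and it was 0.18 without control pool 3 and 0.54 without control pool 1. Dimmer probe sets of Rab27a gave 0.43 and -0.10.

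Rab8b, which acts in transport from the Golgi to the cell surface, read 6039, 6826 and 8856 in control pools against 10241, 8649 and 9528 in deleted pools. Control pool 3 overlapped the deleted pools here, on the high side. The log2 fold change was 0.40 ± 0.15 (adjusted p = 0.34, limma) and ran from 0.28 without control pool 1 to 0.56 without control pool 3 (adjusted p = 0.55 and 0.068, limma). Rab8a, its close relative, read 6035, 5561 and 6096 in controls and 6672, 3954 and 6643 in deleted pools, so that deleted pool 2 lay below all the others. Its log2 fold change was -0.07 ± 0.19.

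Rab3d, a Rab of regulated secretory granules, read 3225, 3851 and 1989.8 in controls and 3259.6, 3261 and 3480.5 in deleted pools. Apart from control pool 3 the pools of both groups shared one range, and the log2 fold change was 0.19 ± 0.22 with an interval from -0.30 to 0.68. It was -0.08 without control pool 3, so its sign on this brightest probe set rests on that pool, and 0.40 without control pool 2. Dimmer probe sets of Rab3d gave 0.06, 0.12 and -0.04, each with overlapping groups. Rab27b stood at 0.04, Rab3a at 0.08, Rab10 at 0.03, Rab15 at 0.07 and Rab13 at 0.27. Rab26, Rab37 and Rab3b lay below the filter.

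Rabs of the ER and Golgi showed the narrowest range among the larger Rab groups, with 11 of 12 genes tested and log2 fold changes from -0.30 (Rab6b) to 0.25 (Rab43). Rab1a, which directs traffic from the ER to the Golgi, read 30849, 30253 and 36078 in control pools and 32315, 32517 and 33993 in deleted pools. The deleted pools lay inside the control range, and the log2 fold change was 0.03 ± 0.11. Rab2a and Rab6a, of the same early secretory pathway, stood at 0.07 and -0.03.

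All 15 Rabs of early and recycling endosomes passed the filter. Their median log2 fold change was 0.00 and 12 of the 15 lay within 0.25 of 0. Rab5a, which organises early endosomes, read 20488, 18905 and 19695 in controls and 18839, 19501 and 18316 in deleted pools. These groups overlapped, at -0.06 ± 0.10, and the interval ran from -0.28 to 0.16. Rab11a, a Rab of recycling endosomes, had a log2 fold change of -0.01 ± 0.13, with control pool 1 (10784) above the other 5 pools (8095 to 9001). Rab14, which works between the Golgi and early endosomes, read 16817, 17579 and 17094 in controls and 15812, 16556 and 16070.1 in deleted pools. Its groups did not overlap, yet the difference was small at -0.09 ± 0.10. Dimmer probe sets of Rab14 gave 0.06, 0.09, 0.06, -0.13 and 0.11, each with overlapping groups.

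Rab20 had the largest positive value of the 100 genes past the filter. It is linked to endosome and phagosome maturation. Its signal was 1077, 997 and 879 in control pools and 1217, 1452 and 1509 in deleted pools. The groups did not overlap, and the log2 fold change was 0.50 ± 0.16 (1.41-fold, interval 0.13 to 0.87), with an adjusted p of 0.29 (limma). Its value ranged from 0.42 to 0.59 when single pools were left out. Macrophage markers stood higher in the same pools, with the sums given above, and their part in the Rab20 value was not tested.

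Among Rabs of late endosomes and lysosome-related organelles, 11 of 13 genes were tested and their median was 0.12. Rab7, the late endosome Rab, read 14798, 15035 and 15801 in controls and 15844, 16336 and 16689.8 in deleted pools. Every deleted pool lay above every control pool by a small margin, at 0.10 ± 0.10 with an interval from -0.12 to 0.32. Rab32, a Rab of lysosome-related organelles, read 827, 1182 and 1139.8 in controls and 1981, 1269 and 1071 in deleted pools. The groups overlapped, deleted pool 1 alone stood high, and the log2 fold change of 0.42 ± 0.25 became 0.17 without deleted pool 1 and 0.26 without control pool 1. Rab39b had a value of -0.53 ± 0.40 from dim signals of 435, 455 and 472 against 390.2, 163 and 486, where deleted pool 2 alone was low. It was -0.06 without that pool and -0.85 without deleted pool 3.

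Outside these compartments, Rab23, an inhibitor of Hedgehog signalling, read 1743, 1561 and 2082 in controls and 1355, 1191 and 1507 in deleted pools. The groups did not overlap, at -0.41 ± 0.16 with an adjusted p of 0.37 (limma), while a dimmer probe set gave 0.15 and the mean over both -0.13. The 8 tested airway markers had lower means in the deleted pools, 2 of them past the threshold, while their sums given above overlapped between groups. Groups did not overlap for 3 of the 8, Ccdc153 (-1.18), Sox2 (-0.83) and Dynlrb2 (-0.62). The bright Scgb1a1, Cyp2f2 and Scgb3a2 stood at -0.11, -0.17 and -0.23. The part of airway cells in the Rab23 value was not tested. Of the 10 proteins named for a Rab they bind or regulate, 8 had negative values, between -0.25 and -0.02, and Rab11fip2 stood at 0.00. Rab5if, the gene of a RAB5 interacting factor, read 15752, 14282 and 13541 in controls and 18835, 16739 and 16523 in deleted pools. Its groups did not overlap (0.26 ± 0.11, adjusted p = 0.40, limma).

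**Figure D2:**
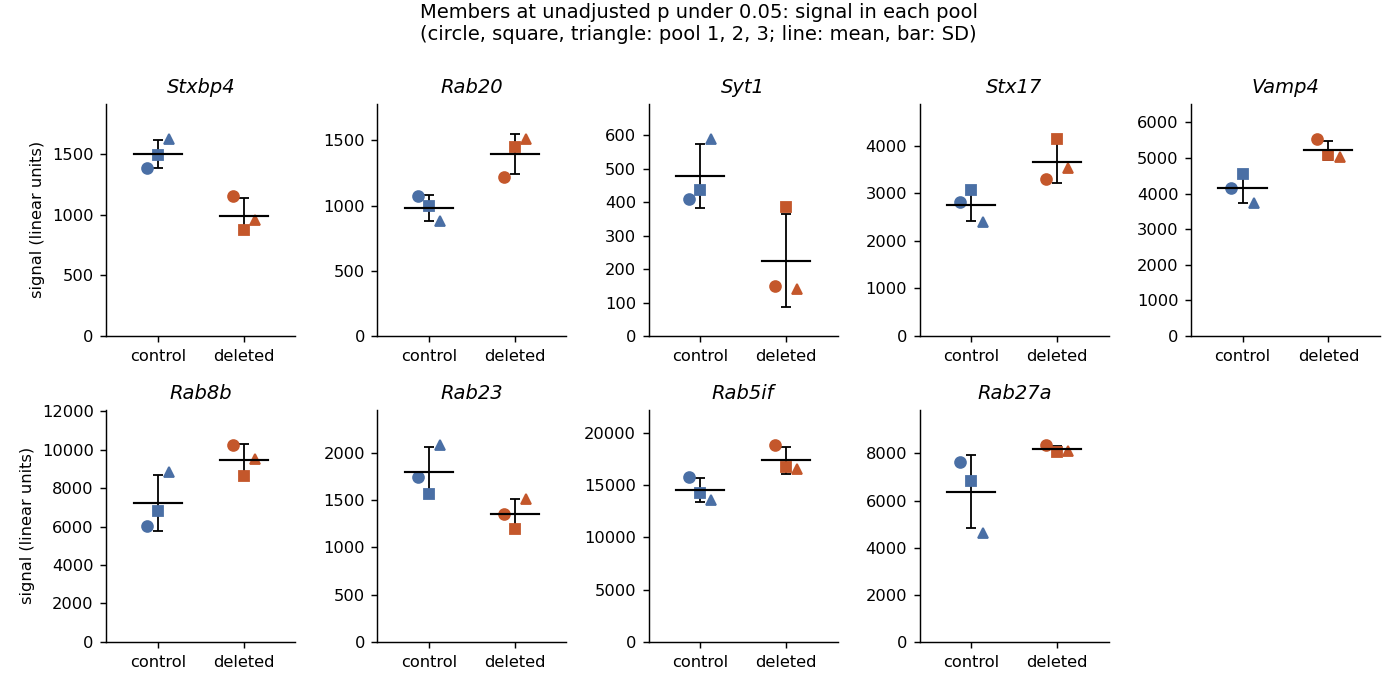
Probe set signal (linear units, axis from 0) in each of the 3 control and 3 deleted pools for the 9 genes with an unadjusted p under 0.05, with the mean (line) and SD (bar). All but Rab8b have groups that do not overlap, and control pool 3 (triangle) is the lowest pool for Rab27a and the highest control for Rab8b.

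Syntaxins of the plasma membrane lay on both sides of 0, from -0.37 to 0.40, with 6 of 6 tested and 0 called. Stx3, an apical target SNARE of epithelial cells, read 13061, 10514 and 14233 in controls and 10255, 10287 and 10496 in deleted pools. The groups did not overlap, but control pool 2 was almost level with the deleted pools. The log2 fold change was -0.27 ± 0.13 with an adjusted p of 0.43 (limma), and it ran from -0.18 without control pool 3 to -0.40 without control pool 2 (adjusted p = 0.62 and 0.082, limma). Its 3 dimmer probe sets gave -0.19, -0.19 and -0.17, the same sign as the brightest.

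Stx2, another plasma membrane syntaxin, read 2044, 1577 and 1806 in controls and 1195, 1382 and 1649 in deleted pools, which overlapped (-0.37 ± 0.17, adjusted p = 0.43, limma). Stx4a, the target SNARE of several constitutive and regulated exocytic routes, read 1436, 1759 and 1407 in controls and 1719, 1756 and 2207 in deleted pools. Those groups overlapped too, at 0.30 ± 0.16 with an adjusted p of 0.495 (limma). The opposite signs of Stx2 and Stx4a were not tested against each other.

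Of the 8 syntaxins of the ER, Golgi and endosomes 6 had positive values, and the median was 0.09. Stx17, the SNARE that fuses autophagosomes with lysosomes, read 2812, 3063 and 2395 in controls and 3298, 4139.5 and 3526 in deleted pools. The groups did not overlap on this brightest probe set (0.41 ± 0.14, adjusted p = 0.315, limma). Its 3 dimmer probe sets gave -0.20, -0.01 and -0.03, so the probe sets of Stx17 disagreed, and their mean gave 0.04. Stx7, of late endosomes, read 6914, 7555 and 7258 in controls and 8421, 8402 and 7796 in deleted pools, without overlap (0.18 ± 0.10). Stx5a, the syntaxin of ER to Golgi transport, had nearly equal means of 11381 ± 779.5 and 11386 ± 537 (SD, n = 3 each), and a dimmer probe set gave -0.30.

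Among VAMPs, 6 of 7 passed the filter and 0 were called. Vamp4, a SNARE of the trans-Golgi network and endosomes, read 4153, 4542 and 3733 in controls and 5527, 5082 and 5020.3 in deleted pools. Its groups did not overlap, at 0.33 ± 0.12 (1.26-fold, interval 0.07 to 0.60) with an adjusted p of 0.32 (limma). Other probe sets gave 0.02 and 0.37. Vamp8, an endosomal and exocrine granule SNARE, read 20727, 26627 and 18086 in controls and 21223, 26729.9 and 25158 in deleted pools, which overlapped (0.17 ± 0.16). Vamp2, which serves regulated exocytosis, read 2596, 4234 and 2764 in controls and 3520.2, 3368 and 3958 in deleted pools. Control pool 2 was the highest of the 6, and the log2 fold change was 0.21 ± 0.19. It was 0.43 without that pool, 0.12 without control pool 3 and 0.08 without control pool 1. Vamp3 and Vamp7, of recycling and late endosomes, stood at 0.06 ± 0.14 and -0.01 ± 0.14. Dimmer probe sets of Vamp3 gave -0.07, -0.01, -0.20 and -0.34, and only the last of these had groups that did not overlap. A dimmer probe set of Vamp7 gave -0.25, also with groups that did not overlap.

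The Snap25 family gave no separation. Snap23, its widely expressed member, read 2273, 2619 and 2225 in controls and 1946, 2990.0 and 2309 in deleted pools, with the deleted pools on both sides of the controls. The log2 fold change was 0.01 ± 0.17, and the interval from -0.38 to 0.39 was the limit on a difference. Snap29 stood at -0.01 and Snap47 at -0.19, while the neuronal Snap25 lay below the filter (215 ± 69.9 in control and 137 ± 49.0 in deleted pools, SD, n = 3 each).

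Of the syntaxin-binding proteins, Stxbp4 had the smallest p of all 100 genes. It binds syntaxin 4 and limits its pairing with a VAMP. Its signal was 1386, 1489 and 1622 in control pools and 1152, 874 and 953 in deleted pools. All deleted values were below all control values, and the log2 fold change was -0.60 ± 0.17 (interval -0.97 to -0.23, adjusted p = 0.20, limma). It ranged from -0.71 to -0.51 when single pools were left out, while a dimmer probe set gave -0.08 and the mean over both -0.34. The Munc18-type genes stood at 0.20 ± 0.15 for Stxbp2, with 1809.6, 2417 and 2107 against 2604, 2465 and 2182, and at 0.10 ± 0.10 for Stxbp3. For Stxbp2 the groups overlapped on the brightest probe set, where 2 dimmer ones gave 0.18 and 0.44.

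Synaptotagmins were mostly dim: 8 of 16 lay below the filter, and the median signal of those tested was 447. Syt1, the calcium sensor of neuronal and neuroendocrine vesicles, had the largest difference of the 100 genes past the filter. It read 409, 437 and 588 in controls and 149.7, 385 and 140.1 in deleted pools. The groups did not overlap, but 2 deleted pools lay under the filter's signal of 271, and the log2 fold change of -1.23 ± 0.42 had an adjusted p of 0.30 (limma). It ranged from -1.70 to -0.98 with single pools left out. Of 6 neuroendocrine markers 3 passed the filter and 0 passed the threshold, with log2 fold changes of -0.87 (Chgb), -0.34 (Syp) and -0.23 (Resp18). Their summed signal was 1602 to 1907 in control and 961 to 1724 in deleted pools, with a lowest signal of 166, and their part in the Syt1 value was not tested.

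Syt7, a calcium sensor of lysosomes and slow exocytosis, read 4346, 4022 and 1816 in controls and 4052, 4312 and 4323 in deleted pools. Only control pool 3 stood away from the others. The log2 fold change of 0.42 ± 0.29 was 0.02 without that pool and 0.65 without control pool 1. Its other probe sets gave 0.23, 0.68 and 0.02, of which the second had groups that did not overlap and an unadjusted p of 0.0023 (limma over probe sets). Syt11, a synaptotagmin that does not bind calcium, read 501, 586 and 615 in controls and 644, 817 and 614 in deleted pools, which overlapped (0.28 ± 0.21). Its dimmer probe sets gave 0.45, 0.43 and -0.11, and only the first of these had groups that did not overlap.

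Several genes shared a low or high value in control pool 3. That pool gave the lowest of the 6 values for 31 of the 100 genes and the highest for 21, where it was lowest for 23.4% and highest for 26.9% of all genes tested. The deviations from each gene's mean had an SD of 0.31 on the log2 scale in control pool 3, against 0.20 to 0.23 in the other 5 pools. All genes tested showed the same, with 0.38 in control pool 3 and 0.26 to 0.30 in the other 5. The median deviation of the 100 genes lay between -0.01 and 0.02 in every pool, on arrays that had been scaled to a common trimmed mean.

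**Figure D3:**
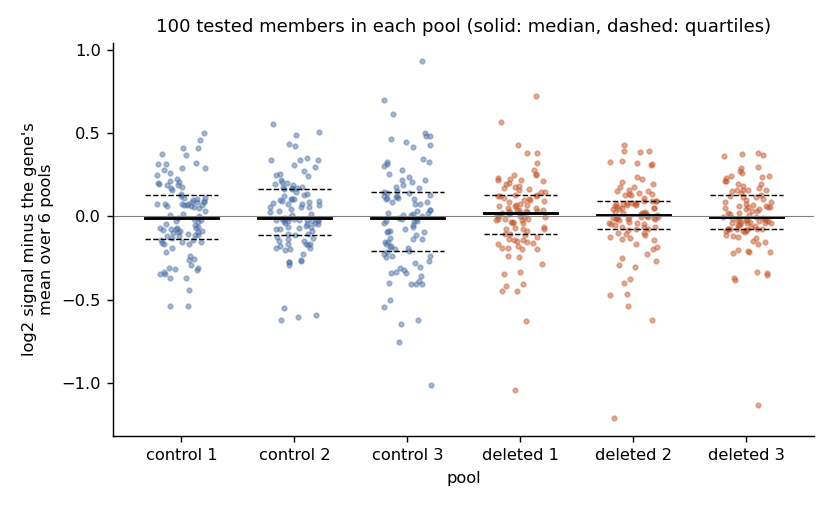
Log2 signal of each of the 100 tested genes minus its own mean over the 6 pools, by pool, with the median (solid) and quartiles (dashed). Medians lie between -0.01 and 0.02 in all pools, and the points spread most in control pool 3 (SD 0.31, against 0.38 for all genes tested in that pool).

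Probe sets of one gene often differed. Of 64 genes with more than 1 probe set past the filter, 34 had the same sign on all of them. Over 209 probe sets of the set past the filter, 11 had an unadjusted p under 0.05 (limma over 27022 probe sets, where 10.2% did), and 0 an adjusted p under 0.05. Of these 11, 3 were not the brightest of their gene, namely those of Stxbp2 (0.44), Syt7 (0.68) and Vamp5 (-0.85), a VAMP first described in muscle whose brightest probe set gave -0.22.

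The 19 genes below the filter were 6 Rab GTPases, 8 synaptotagmins, Snap25, Snap91, Vamp1, Stxbp5l and the opposite-strand transcript Rab11fip4os1. In a fit of all 18193 genes without the filter none of the 119 genes passed (0.39% of all genes did, limma), and 11 had an unadjusted p under 0.05 (background 10.2%). Vamp1, the VAMP of neurons and muscle, read 169, 95.3 and 118 in controls and 328, 369 and 348 in deleted pools, and Stxbp5l, a tomosyn, 51.1, 154 and 40.7 against 300.1, 357 and 179.5. Both were picked after their values were seen, and neither had overlapping groups, while their mean over all pools lay under the filter. Their log2 fold changes were 1.49 ± 0.39 (adjusted p = 0.23, limma) and 1.97 ± 0.60 (adjusted p = 0.30, limma). Rab3b and Snap91 went the other way, with every deleted pool below every control pool. They stood at -0.87 ± 0.55 and -0.72 ± 0.39 (adjusted p = 0.65 and 0.59, limma). A dimmer probe set that names both Vamp1 and E130112N10Rik read 32.4, 55.5 and 56.2 in controls. In deleted pools it read 39.5, 30.8 and 130.6, so its groups overlapped.

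Genes of the same machinery with other names were counted from 6 lists. Of their 149 genes 138 were tested and 0 passed the threshold (limma, against the 0.649% of all genes). With no adjustment, 7 had a p under 0.05 with a higher mean (background 6.05%) and 4 with a lower one (background 6.02%), and the lists together had a median log2 fold change of 0.04. Of the 12 tested genes of Rab prenylation and recycling, 0 had an unadjusted p under 0.05, where 12.1% of all genes did, and their median was 0.05. In that list Chml, a Rab escort protein gene, stood at -0.49 ± 0.22 and Rabggta, a subunit of the Rab geranylgeranyl transferase, at 0.31 ± 0.18.

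Nsf, the ATPase that takes spent SNARE complexes apart, read 2637, 2677 and 2454 in controls and 3785, 3882 and 3417 in deleted pools. The groups lay well apart, at 0.51 ± 0.12 (1.43-fold, interval 0.25 to 0.78), and the adjusted p was 0.13 (limma). Sec22b, a SNARE of ER to Golgi transport, stood at 0.33 ± 0.11 without overlap, and 13 of the 16 genes in this list of SNARE partners had positive values with a median of 0.04. Of 14 tested genes of other fusion regulators, 9 had positive values, the median was 0.04 and 0 passed the threshold. Complexin gene Cplx2 stood at -0.38 ± 0.16 and annexin gene Anxa2 at -0.27 ± 0.13. These 2 were the only genes of that list with groups that did not overlap, where 17.1% of all genes had such groups.

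Of 23 tested Rab effector genes 11 had positive values, the median was -0.00, and 3 had an unadjusted p under 0.05, all with positive values (background 6.05%). The lowest values were those of Rims2 (-0.92 ± 0.45), Sytl2 (-0.37 ± 0.18) and Myrip (-0.30 ± 0.25), genes of proteins that bind Rab3 or Rab27. The smallest p in these lists was that of Rilpl2. This protein binds Rabs and myosin Va, and its gene read 4563, 5019.7 and 4660.4 in controls and 6284, 7239 and 7645 in deleted pools, without overlap (0.57 ± 0.12, adjusted p = 0.088, limma). Mlph, the melanophilin gene whose product links Rab27a to myosin Va, read 1645, 1066 and 1071 in controls and 2204, 2153 and 2104 in deleted pools. Its groups did not overlap either, at 0.80 ± 0.19 (1.75-fold, interval 0.38 to 1.22, adjusted p = 0.14, limma). Myo5a, the gene of that myosin, which was picked after its values were seen, stood at 0.58 ± 0.22 (adjusted p = 0.35, limma). Rab27a itself stood at 0.39, and none of these genes passed the threshold.

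**Figure D4:**
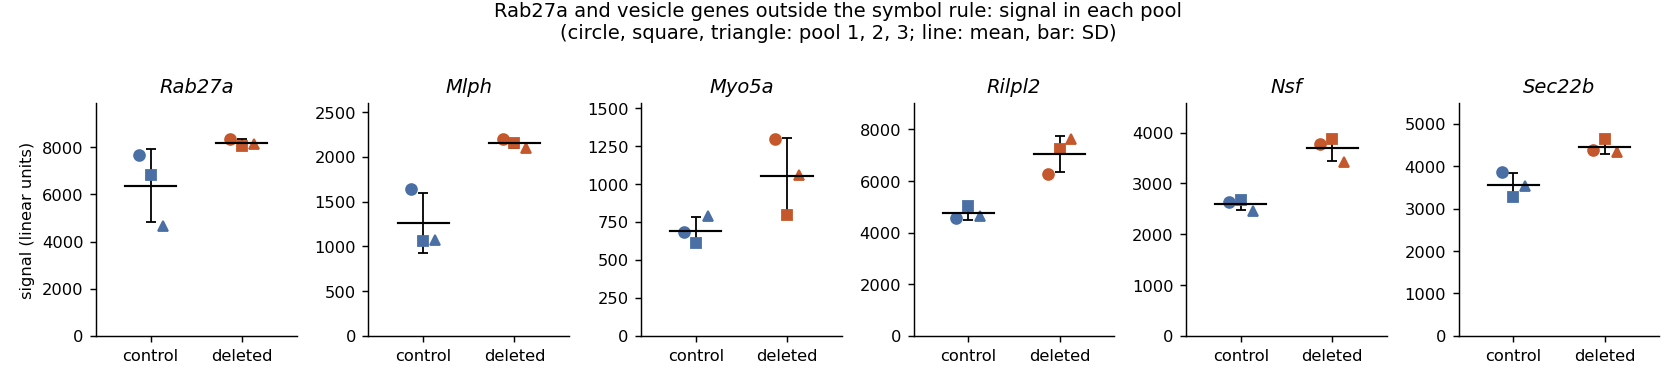
Probe set signal (linear units, axis from 0) in each pool for Rab27a, for Mlph, Rilpl2, Nsf and Sec22b, and for Myo5a, with the mean (line) and SD (bar) of 3 pools a group. These genes were shown for their positive values, and in each panel the deleted pools lie above the control pools, by between 0.33 and 0.80 on the log2 scale.

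In the list of Rab activators and GTPase-activating proteins, 28 of 42 tested genes had positive values and the median was 0.10. The smallest p values there belonged to genes with negative values. They were Tbc1d1, a Rab GTPase-activating protein gene (-0.52 ± 0.17, adjusted p = 0.29, limma), and Rin1, a Rab5 activator gene (-0.84 ± 0.29, adjusted p = 0.30, limma). The groups overlapped for Rin1 and not for Tbc1d1. Among exocyst and tether genes, 0 of 31 had an unadjusted p under 0.05 by limma, where 12.1% of all genes did, and the median was 0.00. Vps39, of the late endosome tether, stood at 0.35 ± 0.16 and Cog7, of the Golgi tether, at -0.46 ± 0.21.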

How the data were processed

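Total RNA from type II cell isolates was hybridised to 6 Affymetrix arrays, 1 pool each. The deposited values are linear probe set intensity values from MAS5, per the submitters' processing notes, with no version. Arrays shared a trimmed mean near 1500 (medians 426 to 479), and no further normalization was applied. Values were raised to at least 1 before log2. Probe sets under the 40th percentile of mean log2 signal (8.08) were dropped, and the brightest probe set naming 1 gene stood for each gene. limma 3.58.1 (R 4.3.3, eBayes with trend) gave two-sided p-values, which reflect variation among pools, adjusted by Benjamini-Hochberg over 12952 genes. These steps were tested on simulated data. The number of arrays limits the precision. An exact permutation test on 3 against 3 cannot give a p under 0.1 and was not used. Signal sizes served to call probe sets or gene sets bright or dim, and were not read as an order of transcript levels between genes.

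Members and lists were chosen with earlier results of these data known. The rule for naming took genes with an unadjusted p under 0.05, the 3 highest and 3 lowest log2 fold changes, a list of secretory genes and the 2 smallest p of each pathway list. Other genes named (Rab2a, Rab3a, Rab3b, Rab6a, Rab6b, Rab10, Rab13, Rab15, Rab27b, Rab43, Rab11fip2, Snap29, Snap47, Snap91, Vamp1, Vamp5, Stxbp5l, Myo5a, Rims2, Sytl2, Myrip) were chosen after their values were seen. Alternatives were quantile normalization, a common median, an added 16, no trend, array weights, no filter, the 60th percentile, the mean over probe sets, the pool number as a block, a threshold of 0.1 and leaving out each pool.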

Additional observations from a re-analysis of the deposited data

How the results depend on the processing

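With 3 pools a group the median standard error of the Rab and SNARE genes was 0.16 on the log2 scale. No gene of the set had an adjusted p under 0.05 in the 15 alternative fits or under 0.1 in the reported fit. The smallest was 0.051, without control pool 2 (limma), where 3.68% of all genes passed 0.05. The median of the set stayed between -0.03 and 0.08. The highest came with arrays shifted to a common median, where the median of all genes was 0.07. With an unadjusted p under 0.05, 3 genes were higher without a trend (5.47% of all genes) and 8 lower with array weights (8.87%). Leaving out single pools gave 2 to 11 genes higher (4.03% to 7.85% of all genes) and 1 to 10 lower (3.44% to 9.91%). Genes called over the whole table were 84 as reported, 29 without a trend, 259 with array weights, 129 at a threshold of 0.1 and 15 to 477 with single pools left out. With the pool number as a block 132 genes were called, 0 of them in the set, while 6 of the set were higher and 4 lower with an unadjusted p under 0.05 (6.91% and 7.1% of all genes). Same-numbered pools had deviations correlated at 0.04 to 0.15, different-numbered ones at -0.13 to 0.05, and 5 of 6 pools correlated best with their own number. A link between same-numbered pools is thus possible, and the reported fit did not model one. Of 32 named genes 22 kept their sign in all fits. The 10 that did not were all genes without an unadjusted p under 0.05 in the reported fit, and the cause was not tested.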
